A study of Mus musculus with 4 samples.

Results

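The 10 cardiac progenitor transcription factors described here were Nkx2-5, Nkx2-6, Isl1, Gata4, Gata5, Gata6, Hand1, Hand2, Mef2c and Myocd. They were picked by gene symbol from the 32285 genes listed in the count matrices, by a rule that holds no measured value, and all 10 were found. RNA of single GFP+ cells of the Tbx1 lineage was counted in mouse embryos at E9.5 (outbred Swiss Webster by the labels, a mixed C57BL/6 and Swiss Webster background by the study's methods), from the dissected pharyngeal region and heart. There were 4 libraries, namely cHet (Tbx1Cre/+; Kmt2d F/+; GFP F/+) Rep1 and Rep2 and cKO (Tbx1Cre/+; Kmt2d F/F; GFP F/+) Rep1 and Rep2. Both genotypes carry the GFP reporter and 1 Cre allele that interrupts Tbx1, so the controls are heterozygous for Tbx1 as well as for floxed Kmt2d, and only cells that have expressed Tbx1Cre are recombined and sorted. Each Rep1 library pooled 4 embryos and was made with the Next GEM kit, and each Rep2 library pooled 3 embryos and was made with the GEM-X kit. The comparison asks whether the loss of both copies of Kmt2d, which encodes a histone H3 lysine methyltransferase, goes with other levels of these genes. The library is the replicate (n = 2 per genotype), and the kit cannot be told apart from the replicate.

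The heart tube grows by the addition of second heart field progenitors, of which the anterior field (aSHF) supplies the outflow tract and right ventricle and the posterior field (pSHF) supplies the atria and inflow tract. Isl1 marks the progenitors of this field and recedes as they differentiate. Nkx2-5, GATA and HAND factors bind the regulatory regions of muscle genes together with MEF2C, while myocardin, encoded by Myocd, is a coactivator of serum response factor and drives contractile genes.

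The promoters of 3 members, Hand2, Isl1 and Nkx2-5, are shown as examples. Each line holds the 250 bases before the RefSeq start on the strand of the gene (GRCm38.p6), and capitals mark a match on either strand to GATAA, the core of a GATA site, to CANNTG, the E-box that HAND proteins and other helix-loop-helix factors can bind, or to AAGTG, the core of an NKX2 site. The windows lie at chr8:57320733-57320982 on the plus strand for Hand2, at chr13:116309689-116309938 on the minus strand for Isl1 and at chr17:26841566-26841815 on the minus strand for Nkx2-5.
Hand2: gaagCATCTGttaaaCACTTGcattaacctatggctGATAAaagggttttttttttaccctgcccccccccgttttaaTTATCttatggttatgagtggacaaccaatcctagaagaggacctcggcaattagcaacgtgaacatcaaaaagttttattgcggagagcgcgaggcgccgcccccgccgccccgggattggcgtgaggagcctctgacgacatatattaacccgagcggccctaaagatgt
Isl1: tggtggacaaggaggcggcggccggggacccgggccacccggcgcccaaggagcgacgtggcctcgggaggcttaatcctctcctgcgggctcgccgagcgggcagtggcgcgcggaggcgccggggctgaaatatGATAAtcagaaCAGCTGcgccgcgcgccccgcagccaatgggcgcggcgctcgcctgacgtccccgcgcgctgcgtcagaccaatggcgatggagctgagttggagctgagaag
Nkx2-5: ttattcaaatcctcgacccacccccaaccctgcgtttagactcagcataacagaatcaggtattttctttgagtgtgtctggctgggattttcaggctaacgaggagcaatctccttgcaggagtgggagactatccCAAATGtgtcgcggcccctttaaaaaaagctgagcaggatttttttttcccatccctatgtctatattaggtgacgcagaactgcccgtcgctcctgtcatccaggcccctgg
The Hand2 window held 2 GATA matches, 2 E-box matches and 1 NKX match that overlapped an E-box, the Isl1 window held 1 GATA and 1 E-box match, and the Nkx2-5 window held 1 E-box match. Of 27025 promoters of this length, 23% held a GATA match, 66.0% an E-box match and 40.8% an NKX match. RefSeq promoters were matched for 5 of the 10 members, and Myocd was not among them.

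After filters, 33448 cells were kept (5869 of cHet and 6291 of cKO in Rep1, 9350 of cHet and 11938 of cKO in Rep2), with medians of 17240.5 to 22972 UMIs per cell. In that order of libraries, the kept cells held 60.0%, 86.1%, 91.6% and 89.8% of all UMIs. Barcodes with under 1000 genes numbered 14762, 1465, 2296 and 2763, so cHet Rep1 stood apart in both measures. The 10 members held 217942 UMIs of 693289273 in the kept cells. Cells were clustered without the 10 members and clusters were named from markers that hold no member, so each name stands for cells like that type. Of 33 clusters, 17 were named, and these held 14880 cells. The name aSHF is only in part borne by its markers, since Rgs5, Tnc, Alx1, Sema3c and Wnt5a were higher in these cells than in all others in 4 of 4 libraries and Fgf10 in 3 of 4, while Tbx1 (mean 37.3 against 72.1 CPM) and Fgf8 (10.9 against 17.0 CPM) were lower in 4 of 4. All 7 pSHF markers, all 8 cardiac muscle markers and 5 of 6 MLP markers (not Hoxc4) were higher in 4 of 4 libraries. The naming rule asked for markers in at least 10% of a cluster's cells and at least 2-fold above the others. By it, cluster 4, with 2002 of the aSHF cells, carried 3 aSHF, 2 pSHF and 2 MLP markers. The pSHF cluster carried 5 pSHF markers but also 4 aSHF markers, so these 2 names are not exclusive. The aSHF cells numbered 514, 380, 499 and 630 with the Rep1 pair before the Rep2 pair and cHet before cKO, an order kept for every set of 4 values that follows, the pSHF cells 239, 132, 416 and 452, and the cardiac muscle cells 134, 34, 217 and 244. The cardiac muscle of cKO Rep1 therefore rests on 34 cells. Kmt2d itself stood at 17.4, 15.2, 23.9 and 21.0 CPM, but tags from the 3′ end do not check the deletion. In both replicates 1 pair of libraries shared barcodes (12 and 41 of the kept cells), and none were shared between kits.

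Levels are given in CPM, the UMIs of a gene per 1000000 UMIs of all cells of a type in a library, as the mean over the 4 libraries with the lowest and highest library. Of the 10 members, 7 had their highest mean among the named types in cardiac muscle, the exceptions being Nkx2-6, Isl1 and Hand2. The unnamed cluster 22, described further on, stood higher by mean for Gata4 (302 CPM), Gata5 (161 CPM) and Gata6 (305 CPM). These orders are descriptions, because types are clusters and no test was made between them. Types whose ranges over the libraries overlap are not ordered beyond their spread.

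**Figure D1:**
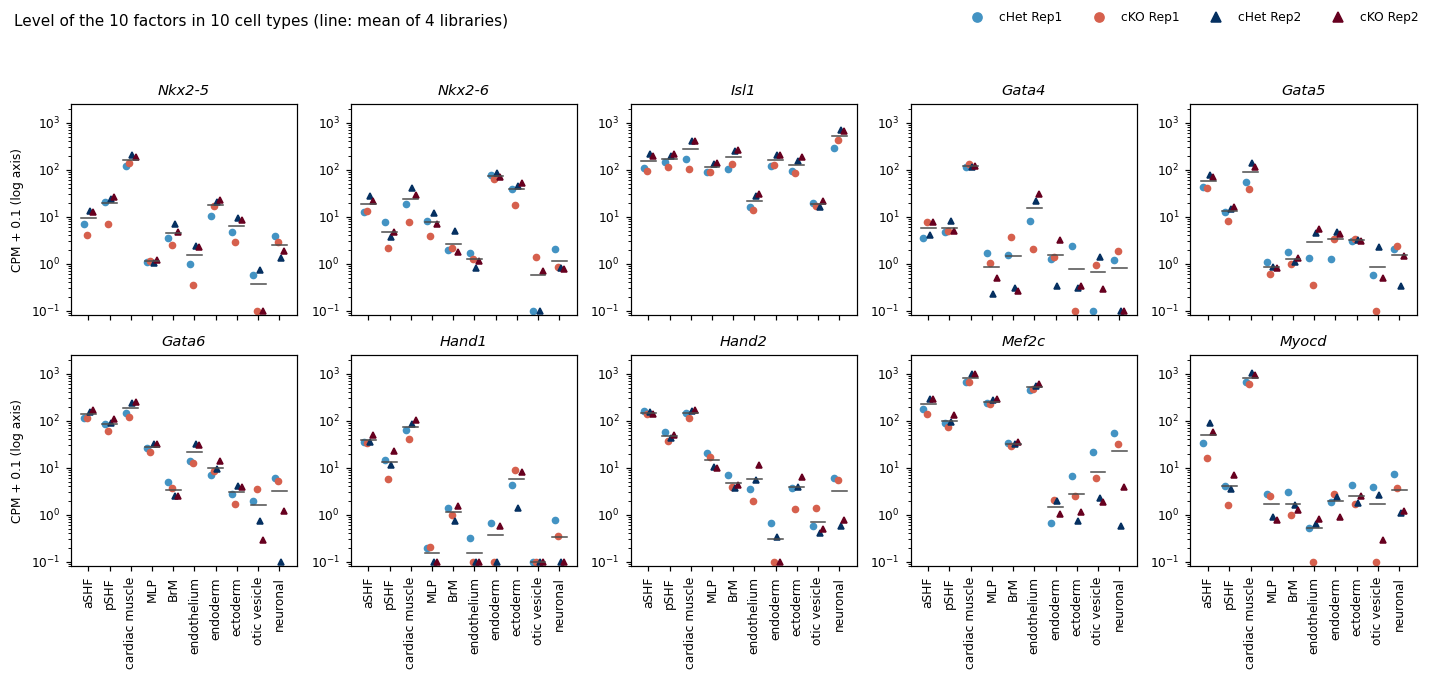
Level of each of the 10 members in each cell type, with 1 point per library (CPM + 0.1 on a log axis) and a line at the mean of the 4 libraries. Myocd, Nkx2-5 and Gata4 stand highest in cardiac muscle in every library, while Nkx2-6 stands highest in endoderm and Isl1 in neuronal cells.

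Nkx2-5, a homeodomain factor required for cardiac looping and chamber identity, stood at 161 CPM (119 to 204) in cardiac muscle. It was at 19.2 CPM (6.91 to 25.6) in pSHF, 17.6 CPM (10.4 to 23) in endoderm and 9.21 CPM (4.06 to 13.2) in aSHF, and no cardiac muscle value overlapped any of these. The pSHF and endoderm ranges overlapped, so their order is not fixed by the libraries. Its lowest level was in the otic vesicle, at 0.275 CPM.

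Nkx2-6, the closest relative of Nkx2-5 and a gene of the pharyngeal endoderm and outflow region, had a different order. Its level was highest in endoderm, at 74.2 CPM (64.7 to 84.8), followed by ectoderm at 38.4 CPM (18.0 to 51.6), cardiac muscle at 24.1 CPM (7.64 to 40.6) and aSHF at 18.5 CPM (12.6 to 27). The ranges of the last 3 overlapped from one to the next, and the endoderm range overlapped none of them. In pSHF it was at 4.53 CPM (2.10 to 7.76), below every aSHF library.

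Isl1, the LIM homeodomain factor of the second heart field, was the member found in the most types. Its mean ran from 113 CPM in multilineage progenitors (MLPs) to 522 CPM (295 to 712) in neuronal cells, and 8 of the 10 types lay within this span, with overlapping ranges from one to the next. Cardiac muscle stood at 272 CPM (103 to 411), branchiomeric muscle progenitors (BrM) at 184 CPM, pSHF at 168 CPM (115 to 220) and aSHF at 154 CPM (92.7 to 218). Only the endothelium (21.9 CPM, 13.5 to 30.3) and the otic vesicle (18.3 CPM) lay below every library of the other 8 types. Isl1 thus did not separate the anterior from the posterior field here.

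The 3 GATA zinc finger factors, which act in heart and endoderm and can stand in for each other in part, differed in how far they reached outside cardiac muscle. Gata4 was at 119 CPM (111 to 131) in cardiac muscle and at only 5.65 CPM (3.49 to 7.70) in aSHF and 5.56 CPM (4.73 to 7.80) in pSHF. Gata5 was at 87.2 CPM (39.3 to 140) in cardiac muscle and at 57.9 CPM (41.1 to 77.9) in aSHF, with overlapping ranges, and dropped to 12.8 CPM (8.11 to 15.9) in pSHF. Gata6 was at 190 CPM (121 to 251) in cardiac muscle, 137 CPM (112 to 170) in aSHF and 86.2 CPM (61.6 to 109) in pSHF. Both Gata5 and Gata6 were thus higher in aSHF than in pSHF in every library, and Gata4 was not. The endothelium had 15.5 CPM of Gata4, with a wide range (1.95 to 30.4), and 1 endothelial cluster led by Gja4 and Npr3 (176 cells) had 161, 0, 211 and 228 CPM. That cluster holds 24, 2, 61 and 89 cells, so the 0 of cKO Rep1 comes from 2 cells.

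The HAND basic helix-loop-helix factors had their highest means among the named types in cardiac muscle and aSHF. Hand2, required for the right ventricle, was at 147 CPM (137 to 158) in aSHF and 146 CPM (112 to 167) in cardiac muscle, with overlapping ranges, and at 46.6 CPM (36.0 to 56.6) in pSHF, below both in every library. Hand1, known from the left ventricle and outflow tract, was at 73.2 CPM (40.4 to 103) in cardiac muscle, 38.6 CPM (33.8 to 50.6) in aSHF and 13.4 CPM (5.71 to 22.5) in pSHF. No UMI of Hand1 was found in 576 otic vesicle cells, which allows a share of up to 0.521% of cells with a UMI, for counting error only. Hand2os1 overlaps Hand2 on the opposite strand, and the strand setting of the counting is not given in the sources used here, so reads of the pair may not be fully separable.

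Mef2c, a MADS box factor of muscle and vessels, was highest in cardiac muscle at 827 CPM (667 to 991), next in endothelium at 519 CPM (448 to 619), and then in MLPs at 254 CPM (225 to 284) and aSHF at 223 CPM (139 to 289), whose ranges overlapped. In pSHF it was at 97.7 CPM (73.6 to 134), below every aSHF library. Myocd had the steepest order of the heart types, with 813 CPM (596 to 1032) in cardiac muscle, 49.2 CPM (16.0 to 89.7) in aSHF and 3.95 CPM (1.5 to 6.94) in pSHF, and none of these ranges overlapped. The otic vesicle, a type in which cardiac genes are not known to act, had 3.80, 0, 2.51 and 0.194 CPM (8, 0, 8 and 1 UMIs), beside 3.98, 1.5, 3.37 and 6.94 CPM in pSHF.

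Of the anterior and posterior fields, aSHF had the higher level in every library for Nkx2-6, Gata5, Gata6, Hand1, Hand2, Mef2c and Myocd, with ranges that did not overlap. The ranges of Nkx2-5, Isl1 and Gata4 in the 2 fields overlapped. Among 9016 genes with a mean of at least 10 CPM in either field, which leave out Gata4, 678 stood higher in aSHF without overlap (7.52%) and 532 in pSHF (5.9%), beside 7 and 0 of 9 members. The 2 fields are clusters, and the pSHF cluster carried more aSHF markers by the naming rule (4) than aSHF cluster 4 did (3), so these counts are a description. Genes whose level followed that of a member over the 10 types and 4 libraries (40 points, Pearson r of log2(CPM + 1), a description over points that share libraries and depth) included Ryr2, the calcium release channel of heart muscle, for Nkx2-5 (r = 0.93), Wnt11 and Tbx20 for Gata4 (both r = 0.91), and Pik3c2g for both Gata5 (r = 0.95) and Hand1 (r = 0.93). The closest for Hand2 were 5033428I22Rik (r = 0.97) and Hand2os1 (r = 0.97), and for Myocd they were Plppr5 (r = 0.96) and Smyd1 (r = 0.95), a methyltransferase of muscle cells. For Isl1 the closest was Sdk2 at r = 0.87, for Nkx2-6 2010300C02Rik at r = 0.90, for Gata6 1010001N08Rik at r = 0.92 and for Mef2c Adgra2 at r = 0.94.

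The cardiac muscle cells came from 2 clusters that differed in the members. Cluster 23 was led by Actc1, Myl7, Myl3, Myl4 and Myh7 (71, 26, 123 and 137 cells), and cluster 27 by Armh4, Smyd1, Ttn, Acta2 and Rgs5, the last of which is also an aSHF marker (63, 8, 94 and 107 cells). Isl1 was at 285, 425, 711 and 717 CPM in cluster 27 and at 94.6, 21.8, 205 and 198 CPM in cluster 23. Gata4 had the opposite order, with 23.5, 27.2, 30.3 and 48.4 CPM in cluster 27 and 170, 157, 166 and 171 CPM in cluster 23. Both orders held in each of the 4 libraries.

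Hand1 (mean 119 against 50.3 CPM), Hand2 (235 against 103 CPM), Gata6 (264 against 149 CPM) and Nkx2-6 (47.3 against 10.6 CPM) were also higher in cluster 27, while Nkx2-5 was lower there (106 against 194 CPM). Myocd was similar in both, at 554, 747, 1138 and 1070 CPM in cluster 27 and 736, 558, 961 and 885 CPM in cluster 23. The 8 cells of cluster 27 in cKO Rep1 make each of its values there a small sample. A further cluster of 385 cells, number 22, carried 7 cardiac muscle markers but had Wnt2, D030025E07Rik, Rspo2 and Tbx5 among its leading genes, and was left unnamed because posterior field genes led it.

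Cluster 22 had the highest Gata4 of these clusters, at 231, 260, 352 and 364 CPM, and Gata6 at 235, 221, 369 and 394 CPM. Hand1 was at 12.2 CPM there and Nkx2-6 at 0.655 CPM, both below each cardiac muscle cluster, and Myocd was at 252 CPM. Between 34.1% and 43.7% of all UMIs of Gata4 in a library came from this cluster. Cluster 30, led by Wt1 and Upk3b, genes of the epicardial lineage, had 172 CPM of Gata4 and 172 CPM of Gata6 with 15.1 CPM of Myocd.

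**Figure D2:**
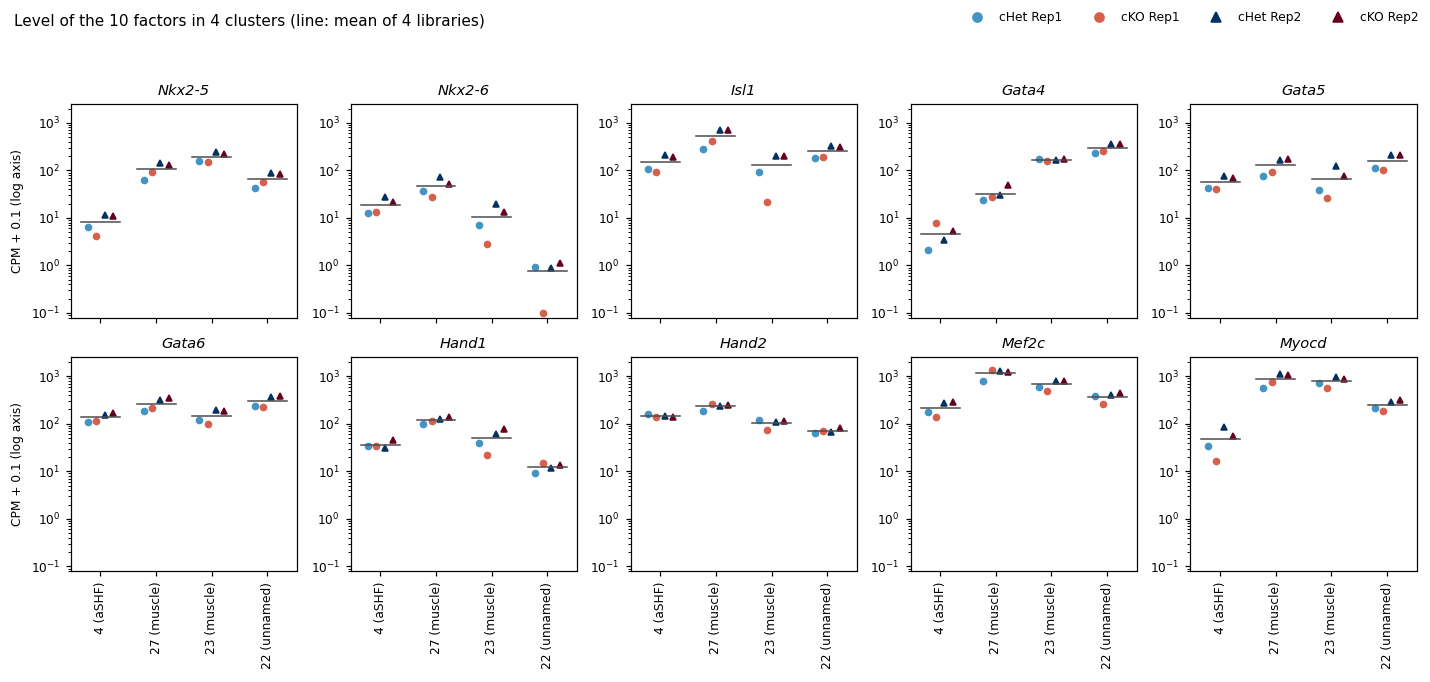
Level of each member in 4 clusters of heart cells, 4 (aSHF), 27 and 23 (cardiac muscle) and 22 (unnamed, with Wnt2 among its leading genes), with 1 point per library (CPM + 0.1 on a log axis) and a line at the mean. Isl1 falls from cluster 27 to cluster 23 in all 4 libraries while Gata4 climbs, and Nkx2-6 and Hand1 are lowest in cluster 22.

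The aSHF and cardiac muscle cells were also ranked together by a sarcomere score, the UMIs of 11 sarcomere genes per 10000, and cut into 4 equal bins in each library. The score holds no member. Of the 10 members, 7 were highest in the top bin by mean, and Nkx2-6, Isl1 and Hand2 were highest in bin 3. The count was also 7 with the score computed without Actc1 and Myl7.

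Myocd climbed the most, with means of 4.79, 16.4, 190 and 712 CPM from bin 1 to bin 4. Nkx2-5 had means of 3.16, 5.93, 26.9 and 142 CPM, and Gata4 3.44, 5.97, 7.76 and 102 CPM. Gata4 was thus low through bin 3 in every library, at most 12.5 CPM, whereas Myocd in bin 3 was at 50.5, 7.73, 458 and 243 CPM. Isl1 had its highest level in bin 3 in both Rep2 libraries (508 and 470 CPM, against 344 and 377 CPM in bin 4) and in bin 4 in both Rep1 libraries (189 and 172 CPM, against 188 and 97.9 CPM in bin 3). Bin 3 held 2, 0, 38 and 27 cardiac muscle cells, so its cell mix differed between the replicates as these levels did, and the part of that mix was not tested. Mef2c had means of 72.6, 162, 461 and 765 CPM. Gata6 (107, 140, 177 and 182 CPM) and Hand2 (107, 153, 183 and 153 CPM) changed least along the score.

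Bin 4 held 132 cardiac muscle cells of 162, 34 of 103, 179 of 179 and 217 of 218, so in cKO Rep1 it was mostly aSHF cells. In bin 4 of that library Myocd was at 252 CPM and Nkx2-5 at 53.8 CPM, the lowest of the 4 libraries for both, and the part of the cell mix was not tested. The bins are therefore read within a library and not between genotypes.

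**Figure D3:**
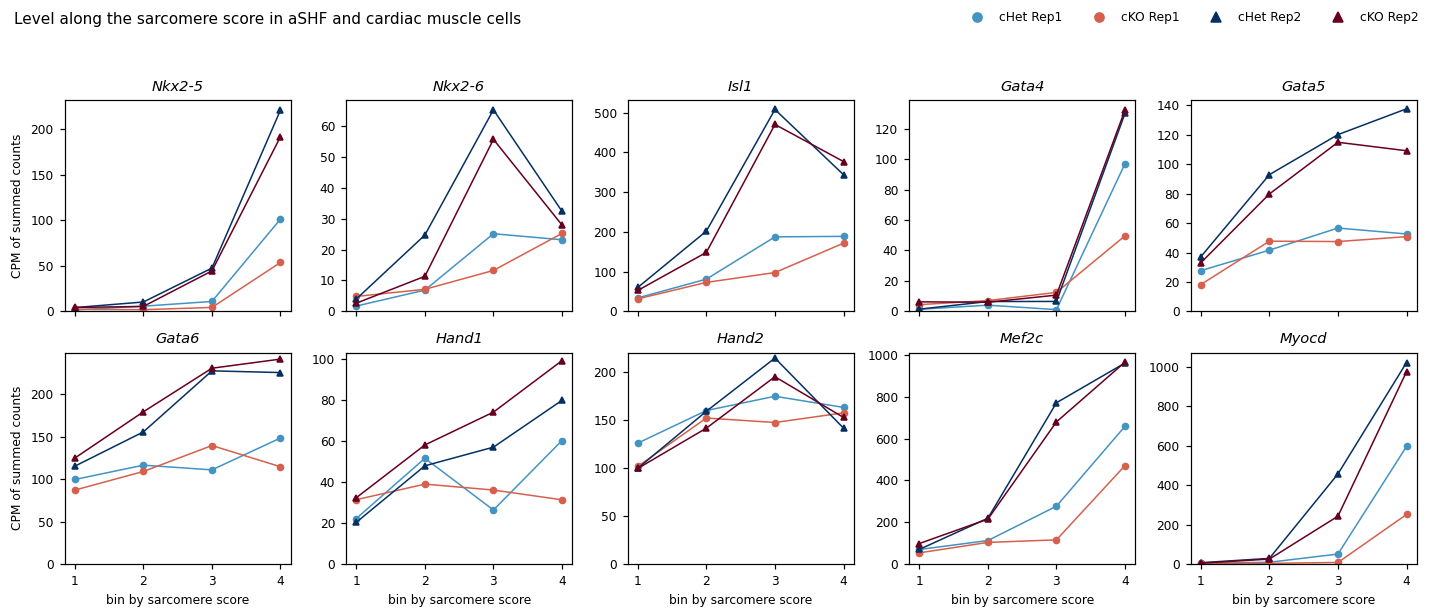
Level of each member in 4 bins of the aSHF and cardiac muscle cells ranked by sarcomere score, from lowest (1) to highest (4), with 1 line per library (CPM on a linear axis from 0, with its own scale for each gene). Myocd, Nkx2-5 and Mef2c are highest in bin 4 in each library, Gata4 stays at or below 12.5 CPM until bin 4, and Isl1 peaks in bin 3 in the Rep2 libraries.

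In single aSHF cells thinned to 5000 UMIs, UMIs of Isl1 and Myocd fell in the same cell in 6.03%, 2.63%, 16.0% and 11.9% of cells, where the product of the separate shares is 2.76%, 0.972%, 8.57% and 6.41%. Mef2c and Myocd were found together in 7.20%, 3.16%, 14.4% and 10.3% of cells against products of 3.29%, 0.963%, 7.80% and 5.89%. Isl1 and Gata4 were found together in 0%, 0.263%, 0.401% and 1.11% of cells against products of 0.368%, 0.673%, 0.466% and 1.35%, so they met in no more cells than the product in any library. These shares rest on few cells and are a description.

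Between the genotypes, Myocd was the only member that passed the test in aSHF, where it fell in cKO (edgeR quasi-likelihood test, replicate as a block, adjusted p = 0.0091). Its level was 33.8 CPM in cHet Rep1 and 16.0 in cKO Rep1, and 89.7 CPM in cHet Rep2 and 57.3 in cKO Rep2. The cKO library was below the cHet library of its replicate in both, although the Rep2 cKO value was above the Rep1 cHet value, so the genotypes overlap across kits. The log2 fold change was -0.79 ± 0.10 (SE), with -1.09 in Rep1 and -0.62 in Rep2. Of 13645 genes tested in aSHF, 6 passed (0.044%), 2 lower in cKO (0.0147%) and 4 higher (0.0293%), beside 1 of 10 members.

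The same direction was seen in the share of aSHF cells with a UMI of Myocd, which was 17.9% (95% Wilson interval 14.8 to 21.4) and 10.3% (7.60 to 13.7) in Rep1, and 29.1% (25.2 to 33.2) and 22.1% (19.0 to 25.5) in Rep2. The intervals cover only the counting of cells within a library, not the spread between pools, so they do not test the genotype. These shares come from the same UMIs as the tested sums and are not separate support. With each cell thinned to 5000 UMIs the shares were 8.75%, 3.42%, 18.4% and 15.1%. In the otic vesicle, at median depths of 20078.5, 26504, 23281 and 18315.5 UMIs against 19607, 24063, 22105 and 17701.5 in aSHF, the unthinned shares were 3.57%, 0%, 3.79% and 0.370%, where 0 of 90 cells has an upper Wilson bound of 4.09%.

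Sarcomere RNA was also lower in cKO in aSHF. The 11 genes of the sarcomere score summed to 327, 254, 686 and 555 CPM there. This was not particular to aSHF. The sum was also lower in cKO in both replicates in endothelium (46.1, 26.7, 73.2 and 64.8 CPM) and ectoderm (44.6, 22.4, 30.3 and 21.9 CPM). In pSHF, MLPs, BrM, endoderm and neuronal cells it went the same way. Cardiac muscle was higher in both replicates, and the otic vesicle went opposite ways. Cells of aSHF with a score of at least 10 made up 6.03% (31 cells), 3.95% (15 cells), 22.4% (112 cells) and 16.7% (105 cells), and within them Myocd was at 269, 205, 327 and 233 CPM. In cells with a score from 2 to below 10 it was at 32.1, 16.7, 40.1 and 44.8 CPM, and in those with a score below 2 at 5.38, 3.88, 7.63 and 6.67 CPM (26, 20, 33 and 33 UMIs), above the otic vesicle in each library. Myocd was thus lower in cKO in both replicates in the highest and lowest class, and in Rep1 but not Rep2 in the middle class. The otic vesicle was not the highest of the types outside the heart. In their highest library, neuronal cells had 7.20 CPM of Myocd and ectoderm 4.12 CPM. Barcodes with few genes, which the filters left out, had 13.5, 3.34, 15.1 and 22.8 CPM. The part of background RNA in the lowest class was not tested. The part of the share of high-score cells in the difference of Myocd was not tested either. Of the markers of other cells and of RNA quality in aSHF, blood genes were at 10.5, 8.32, 2.86 and 6.79 CPM, lower in cKO in Rep1 and higher in Rep2. They went the same ways over all kept cells (13.9, 13.3, 2.65 and 7.36 CPM). Neural crest genes (6.80, 5.72, 5.18 and 4.94 CPM) and immediate early genes (127, 126, 173 and 153 CPM) were lower in cKO in both replicates. Proepicardial genes were higher in cKO in both (52.1, 57.3, 87.6 and 119 CPM). Their part was not tested.

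**Figure D4:**
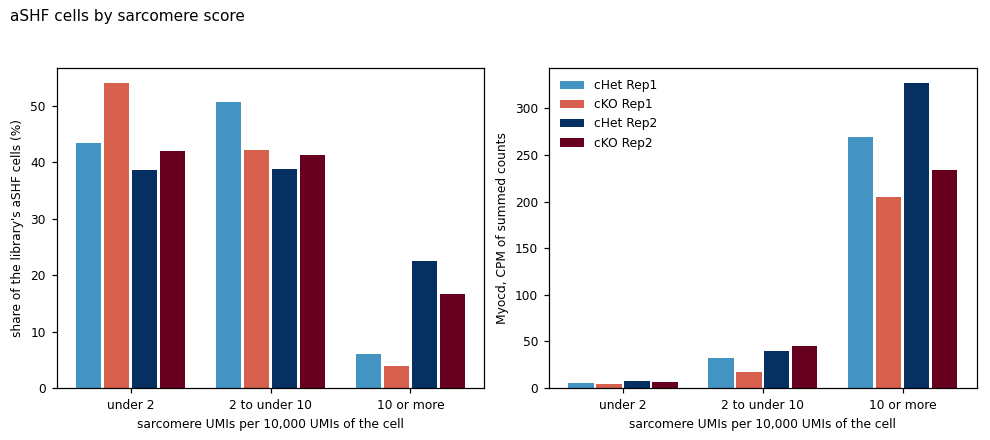
Myocd in aSHF cells by sarcomere score class, with the share of aSHF cells in each class and the Myocd level (CPM) within it, per library. The cKO library has the smaller share of high-score cells and the lower Myocd level among them in both replicates.

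The call for Myocd in aSHF depended on the fit. It was lost without the replicate block (edgeR adjusted p = 1.0) with DESeq2 (adjusted p = 0.20) and after thinning each cell to 5000 UMIs (edgeR adjusted p = 0.113, log2 fold change -0.66), and leaving out the 21 cells of cluster 32, an alternative chosen after seeing the data, gave an adjusted p of 0.0569 with a log2 fold change of -0.78. With 1 library left out, in fits that cannot hold the block, it was lost in each case, with fold changes of -1.18 without cHet Rep1, -0.20 without cKO Rep1, -0.14 without cHet Rep2 and -1.70 without cKO Rep2.

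Gata4 had the largest difference of any member in aSHF and did not pass (log2 fold change 1.03 ± 0.21, adjusted p = 0.146 by edgeR). Its level there was 3.49 and 7.70 CPM in Rep1, and 3.93 and 7.49 CPM in Rep2, so both cKO libraries were above both cHet libraries at a low level of 38, 74, 44 and 85 UMIs. It passed in 3 of 10 other settings. The proepicardial list was also higher in cKO in aSHF (52.1, 57.3, 87.6 and 119 CPM), and cluster 30, which has 172 CPM of Gata4, is led by such genes. The list is not particular to such cells. It stood at 90.5, 101, 174 and 249 CPM in BrM and at 234, 168, 279 and 336 CPM in ectoderm. The part of these genes in the difference of Gata4 was not tested. In the otic vesicle Gata4 was at 0, 0.840, 1.25 and 0.194 CPM.

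The other 8 members did not pass in aSHF either, and each had an adjusted p of 0.796 or above by edgeR. In all, 5 of the 10 members had an unadjusted p under 0.05 in aSHF, beside 4.95% of all genes tested. Isl1 was at 109, 92.7, 218 and 196 CPM (log2 fold change -0.18 ± 0.06) and Hand2 at 158, 142, 150 and 137 CPM (-0.13 ± 0.06), each lower in cKO in both replicates. Hand1 was at 34.7, 33.8, 35.3 and 50.6 CPM (0.27 ± 0.12), and only cKO Rep2 stood apart. The levels of Nkx2-5 (6.80, 4.06, 13.2 and 12.8 CPM), Nkx2-6 (12.6, 13.1, 27 and 21.5 CPM), Gata5 (41.9, 41.1, 77.9 and 70.5 CPM), Gata6 (112, 112, 154 and 170 CPM) and Mef2c (174, 139, 289 and 288 CPM) differed more between the replicates than between the genotypes within a replicate. Of the 10 members, 7 had a negative fold change in aSHF, 5 of them in both replicates, with a median of -0.14 beside 0.00064 over all genes tested.

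**Figure D5:**
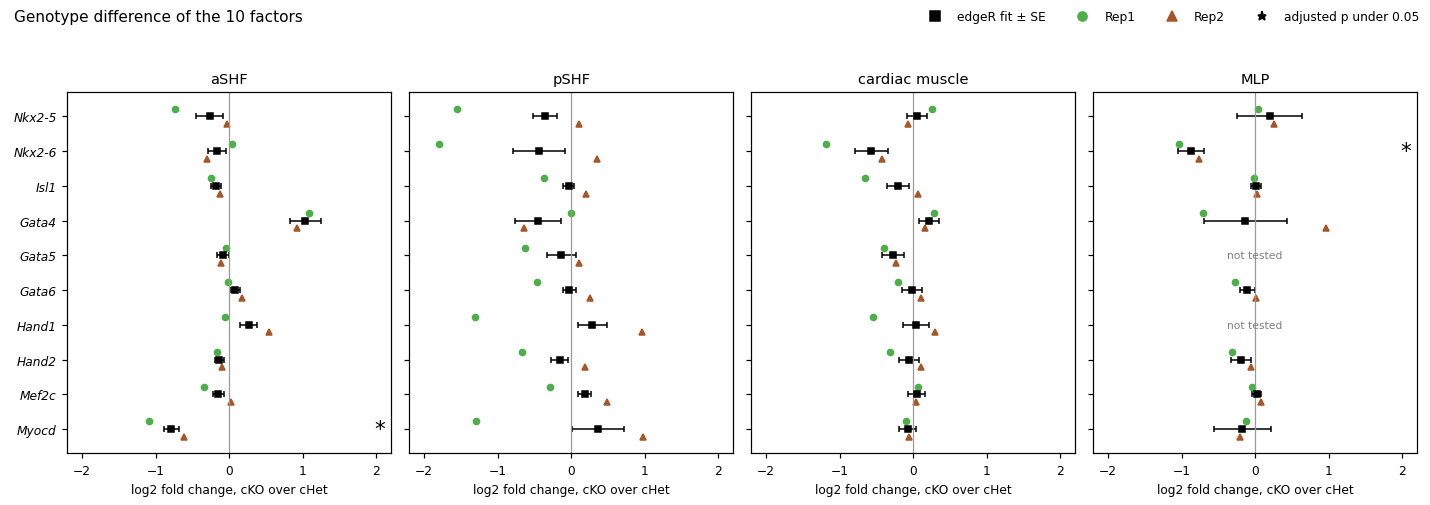
Log2 fold change of each member, cKO over cHet, in aSHF, pSHF, cardiac muscle and MLPs, with a circle for Rep1, a triangle for Rep2, a square with its SE for the edgeR fit, and a star at an adjusted p under 0.05. In aSHF the replicate points of Myocd lie at -1.09 and -0.62 and those of Gata4 at 1.09 and 0.92, while in pSHF most members have replicate points on opposite sides of 0.

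In pSHF, 0 of 10 members passed by edgeR (2 had an unadjusted p under 0.05, as did 4.98% of all genes, and DESeq2 called 0), beside 40 of 12662 genes tested (0.316%), 17 lower (0.134%) and 23 higher (0.182%). Of the 10 members, 9 were lower in cKO than in cHet in Rep1 and higher in Rep2, Gata4 being the exception (4.73, 4.81, 7.80 and 4.91 CPM). Nkx2-5 was at 20.4, 6.91, 23.7 and 25.6 CPM, Hand1 at 14.2, 5.71, 11.4 and 22.5 CPM and Mef2c at 88.0, 73.6, 95.1 and 134 CPM. Over all genes tested in pSHF, 50.1% had the same sign in both replicates. The pSHF of cKO Rep1, with 132 cells, was the lowest library for 9 of the 10.

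In cardiac muscle, 0 of 10 members passed by edgeR (1 had an unadjusted p under 0.05, as did 4.41% of all genes, and DESeq2 called 0), beside 6 of 11785 genes (0.0509%), 3 lower (0.0255%) and 3 higher (0.0255%). Myocd was at 664 and 596 CPM in Rep1, and 1032 and 961 CPM in Rep2, a log2 fold change of -0.07 ± 0.11. Nkx2-6 had the smallest p, at 18.9 and 7.64 CPM in Rep1 and 40.6 and 29.2 CPM in Rep2 (-0.57 ± 0.23, adjusted p = 0.983). The 7.64 CPM of cKO Rep1 rests on 7 UMIs. Cluster 27, the one of the 2 muscle clusters with more Nkx2-6, gave 63 of 134 cells in cHet Rep1 and 8 of 34 in cKO Rep1, and the part of this mix was not tested. Nkx2-5 (119, 136, 204 and 186 CPM), Gata4 (112, 131, 111 and 121 CPM) and Mef2c (667, 667, 991 and 984 CPM) had fold changes of 0.06 ± 0.14, 0.21 ± 0.14 and 0.05 ± 0.11 on the log2 scale, and none passed.

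In MLPs, the multilineage progenitors marked here by Hox genes and Scn3a, 8 members had enough counts to test, and 1 passed, Nkx2-6, which fell in cKO. It was at 7.82 and 3.69 CPM in Rep1 (78 and 36 UMIs) and at 11.9 and 6.88 CPM in Rep2 (194 and 104 UMIs), so each cKO library was lower than the cHet library of its replicate and both were lower than either cHet library. The log2 fold change was -0.87 ± 0.18 (edgeR adjusted p = 0.0096), with -1.04 in Rep1 and -0.76 in Rep2. Of 14048 genes tested in MLPs, 58 passed (0.413%), 22 lower in cKO (0.157%) and 36 higher (0.256%). The call was lost in 8 of 9 other settings, DESeq2 and the fit without the replicate block among them, with the fold change between -0.97 and -0.44, and was also lost without any 1 of the 4 libraries (-1.21 to -0.65).

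Of the members in other types, 0 of 10 passed in BrM by edgeR, although 4 had an unadjusted p under 0.05, as did 7.60% of all genes (DESeq2 called 0), beside 75 of 14552 genes (0.515%), 26 lower (0.179%) and 49 higher (0.337%). These were Nkx2-5 (-0.57 ± 0.20), Nkx2-6 (-0.95 ± 0.34), Isl1 (0.22 ± 0.08) and Myocd (-0.91 ± 0.38), all log2 fold changes. The level of Myocd there was 3.00, 0.872, 1.48 and 1.13 CPM. That of Nkx2-6 was 1.84, 2.01, 4.80 and 1.68 CPM (19, 23, 120 and 43 UMIs), so its replicates went opposite ways and the lower level was in Rep2 alone. In endothelium, 0 of 8 tested members passed by edgeR (1 had an unadjusted p under 0.05, as did 4.30% of all genes, and DESeq2 called 0), beside 5 of 12989 genes (0.0385%), 2 lower (0.0154%) and 3 higher (0.0231%), and that member was Mef2c, at 448, 471, 539 and 619 CPM (0.14 ± 0.06). In endoderm, 0 of 5 passed by edgeR (0 had an unadjusted p under 0.05, against 3.69% of all genes, and DESeq2 called 0), beside 11 of 11479 genes (0.0958%), 1 lower (0.00871%) and 10 higher (0.0871%), and Nkx2-6 was at 76.3, 64.7, 84.8 and 70.9 CPM (-0.26 ± 0.15). Nkx2-6 was thus lower in cKO in both replicates in endoderm, MLPs and, with the cluster mix given above, cardiac muscle, and it passed in MLPs alone. In ectoderm, which was not tested, its replicates went opposite ways, with cKO Rep1 the lowest library (18.0 CPM) and cKO Rep2 the highest (51.6 CPM). The response in MLPs was not shown to differ from that in cardiac muscle (adjusted p = 1.0 by edgeR) or in aSHF (adjusted p = 0.249).

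Summed over all kept cells, 0 of 10 members passed by edgeR (3 had an unadjusted p under 0.05, as did 5.66% of all genes, and DESeq2 called 1, Myocd, with 62 of 20126 genes), beside 0 of 20126 genes by edgeR (0%). All 10 had a negative fold change, 5 of them in both replicates. Myocd was at 27.3, 15.0, 44.5 and 37.7 CPM (-0.51 ± 0.13, adjusted p = 0.689 by edgeR) and Nkx2-5 at 5.41, 2.24, 10.1 and 8.98 CPM (-0.66 ± 0.24). In such sums, fewer cells of a type and less RNA per cell cannot be told apart, and the share of cardiac muscle cells was 2.28%, 0.540%, 2.32% and 2.04%, that of aSHF cells 8.76%, 6.04%, 5.34% and 5.28% and that of pSHF cells 4.07%, 2.10%, 4.45% and 3.79%. With barcodes of at least 1000 genes, cardiac muscle made up 818 of 17982, 36 of 7160, 219 of 10398 and 259 of 13181 cells, so the filter changed its share mainly in cHet Rep1. A cluster of 292 cells led by Hes5 and Rfx4, genes of neural progenitors, came almost wholly from Rep1 (102, 175, 13 and 2 cells), and the part of these shares in the sums was not tested.

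Whether the response to genotype differed between types was tested in 1 model per pair of aSHF, pSHF, cardiac muscle and MLPs (edgeR, library as a block, adjusted over all genes), and 4 of 60 tests of a member passed. The response of Myocd, the log2 fold change of cKO over cHet, was 0.73 ± 0.11 higher in cardiac muscle than in aSHF (adjusted p = 6.1e-05), beside 18 of 13832 genes for that pair (0.13%). Against pSHF, where 27 of 13996 genes passed (0.193%), the response in pSHF minus that in aSHF was 1.23 ± 0.29 for Myocd (adjusted p = 0.0182), -1.45 ± 0.35 for Gata4 (adjusted p = 0.0318) and 0.32 ± 0.08 for Mef2c (adjusted p = 0.0443). Myocd in pSHF rests on 21, 5, 32 and 58 UMIs and its replicates went opposite ways (-1.29 and 0.97), as did those of Mef2c (-0.28 and 0.49). The aSHF enters all 4 of these differences, so they share its libraries. All 4 calls were lost without the replicate terms and also without cHet Rep2, and with 1 library left out at a time those of Gata4, Mef2c and Myocd in pSHF were lost in 4, 3 and 2 of 4 fits and that of Myocd in cardiac muscle in 3. For the other 4 pairs 0 members passed by edgeR, beside 24 of 14419 genes for MLPs against aSHF (0.166%), 30 of 13185 for cardiac muscle against pSHF (0.228%), 26 of 14061 for MLPs against pSHF (0.185%) and 33 of 14093 for MLPs against cardiac muscle (0.234%). At an unadjusted p under 0.05 there were 5 members for MLPs against aSHF, 2 for cardiac muscle against pSHF and 0 for the remaining pairs. The share of all genes under that unadjusted threshold was not computed for these differences, so these counts of members cannot be set against a background. No other tool was run on these differences.

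Genes that act with the members were read in 3 lists. Of the muscle genes that Myocd and its partners are known to drive, 12 of 16 were tested in aSHF and 1 passed, Ttn, the giant spring protein of the sarcomere, at 71.8 and 42.9 CPM in Rep1 and 352 and 261 CPM in Rep2 (-0.54 ± 0.08, edgeR adjusted p = 0.0169). Of the 12, 11 had a negative fold change in aSHF, 5 of them in both replicates, with a median of -0.19 beside 0.00064 over all genes. The exception was Tagln, a smooth muscle gene, at 0.24 ± 0.08 (edgeR adjusted p = 0.763). The replicates had the same sign for 6 of the 12, beside 49.7% of all genes tested in aSHF. A negative median was not particular to aSHF. Over the muscle genes tested it was -0.21 in pSHF, -0.43 in MLPs, -0.24 in BrM, -0.26 in endothelium and -0.16 in endoderm. In cardiac muscle 16 of 16 were tested and 2 passed, both higher in cKO. Myl2, the ventricular light chain, was at 834 and 1445 CPM in Rep1 and 223 and 369 CPM in Rep2 (0.82 ± 0.12, adjusted p = 0.0009). Nppb, a natriuretic peptide, was at 55.1 and 115 CPM in Rep1 and 23.3 and 48.8 CPM in Rep2 (1.12 ± 0.16, adjusted p = 0.0011). The median of the 16 was 0.24 beside 0.0027 over all genes, and 15 were above 0. These levels are from 34 cells in cKO Rep1, of which 26 were of cluster 23, against 71 of 134 in cHet Rep1.

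Of the 18 partner genes, which hold T-box factors, GATA and SRF cofactors and their regulators, 16 were tested in aSHF and 0 passed by edgeR (4 had an unadjusted p under 0.05), those with the smallest p being Zfpm2, a GATA cofactor (0.27 ± 0.09), and Hopx (-0.39 ± 0.13). In cardiac muscle 17 were tested and 0 passed (4 with an unadjusted p under 0.05), with Hopx (0.48 ± 0.13) and Hey2 (1.04 ± 0.33) at the top. DESeq2 called 0 genes of any kind in aSHF and 1 in cardiac muscle. In pSHF, Tbx20 passed (1.36 ± 0.32, adjusted p = 0.0132) with replicates of opposite sign (-0.92 and 1.81), and Tnni1 of the muscle list fell in the fit (-0.44 ± 0.11, adjusted p = 0.0173) through Rep1 (76.1 and 34.5 CPM) and not Rep2 (58.8 and 59.7 CPM). In BrM, Hopx fell (-0.88 ± 0.14, adjusted p = 0.0192) and Zfpm2 rose (0.47 ± 0.09, adjusted p = 0.0385), each in both replicates. Of the 9 heart field signals, 0 of 9 passed in aSHF and 0 of 8 in cardiac muscle by edgeR (2 and 0 with an unadjusted p under 0.05). Those with the smallest p in aSHF were Wnt2 (0.37 ± 0.10) and Aldh1a2 (0.77 ± 0.31), the retinoic acid enzyme of the posterior field, and in cardiac muscle Fgf10 (-0.35 ± 0.18) and Wnt2 (0.32 ± 0.19). In MLPs 0 genes of the 3 lists passed by edgeR. There 1 of 14 partners, 2 of 8 signals and 5 of 10 muscle genes tested had an unadjusted p under 0.05, as did 6.40% of all genes. Likewise 0 passed in endothelium (2 of 11 muscle genes under that unadjusted p, beside 4.30% of all genes) and in endoderm (1 of 6 muscle genes, beside 3.69%). In all cells together 0 passed too (2 of 17 partners, 1 of 9 signals and 14 of 16 muscle genes, beside 5.66% of all genes).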

How the data were processed

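GFP+ cells of 2 cHet and 2 cKO pools were profiled with 10x Genomics 3′ kits. Per the labels and file headers, the authors obtained UMI counts from Cell Ranger, for which the submitters' processing notes name version 8.0.1 and mm10, while the headers name 7.0.1 for Rep1 and 8.0.1 for Rep2, and deposited the counts without scaling. The 4 matrices held 206975655, 179454146, 222401516 and 234726019 UMIs in 37093, 9307, 13192 and 16775 barcodes (cHet Rep1, cKO Rep1, cHet Rep2, cKO Rep2). Barcodes with at least 3000 genes, at most 10% mitochondrial and at most 5% hemoglobin UMIs were kept. The study's own workflow removed ambient RNA with SoupX, whereas the deposited counts were used here without such a step. The automatic Scrublet threshold marked 2, 1, 10 and 219 barcodes, so doublets were taken from the top scores down to the rate expected for the kit (0.8% per 1000 cells for Next GEM and 0.4% for GEM-X), which called 361, 359, 393 and 637.

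Log counts of 2000 variable genes without the 10 members were scaled within each replicate, 30 components were computed and shifted to align the replicates by a procedure written after Harmony (100 soft centres, penalty 2, width 0.1, ridge 1, 10 rounds), and 20 neighbours gave Leiden clusters at a resolution of 0.8 (scanpy 1.11.5, leidenalg 0.10.2, Python 3.11.15). A cluster was named where at least 3 markers of a type were found in at least 10% of its cells and at least 2-fold above the other cells after adding 5 CPM. It stayed unnamed where its leading genes went against the name. The thresholds were set after seeing the clusters. The rule for the members holds no measured value, but the members, like the marker and gene lists, were proposed with earlier results of these data known.

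Counts were summed per library and type and tested with edgeR 4.0.16 (R 4.3.3, quasi-likelihood test, TMM scaling, filterByExpr, Benjamini-Hochberg over all genes tested in the type, adjusted p under 0.05), with the replicate as a block. The SE is the size of the fold change divided by the square root of F. Fold changes per replicate use log2 CPM with a prior count of 2. Tests were run in aSHF, pSHF, cardiac muscle, MLPs, BrM, endothelium, endoderm and all cells together. Ectoderm, otic vesicle and neuronal cells were described and not tested. A minimum of 20 cells per library was set, which every type tested met. Replicate numbers are shared by the genotypes and each marks a kit, and same-numbered libraries also deviated together (correlation of deviations from the genotype means 0.609 in cardiac muscle to 0.815 in all cells). Cells of a pool are not replicates, and the labels do not tell embryos apart. With the block, 1 degree of freedom is left per gene. The SE and p-value of a gene therefore rest largely on dispersion estimated over all genes of the type. They can be small where its replicates disagree. Mef2c in pSHF had an SE of 0.087 with replicates at -0.28 and 0.49 (log2 fold change). The script was tested on simulated data. Alternatives were DESeq2 1.42.0 and its size factors, no block, all genes with at least 1 count, leaving out each library, thinning to 5000 UMIs, doublets kept, at least 1000 genes, clustering with the members and a resolution of 1.2. Genes were named by rule: every member, list genes that passed, per list the 2 with the smallest p in aSHF and cardiac muscle, and genes most like a member. 1 gene among the leading genes of a cluster is not reported here. Positions are on GRCm38.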

Additional observations from a re-analysis of the deposited data

Results flagged for a closer look

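The response to genotype (log2 fold change of cKO over cHet) differed between types for 3 members by the edgeR test of the difference, in 4 results. Each is given as the response in the other type minus that in aSHF. Myocd differed by 0.73 in cardiac muscle (adjusted p = 6.1e-05), where its own fold change was -0.07 beside -0.79 in aSHF. Leaving out 1 library at a time, without the replicate terms, gave 0.25 to 1.30, and the call held only without cKO Rep2. Myocd differed by 1.23 in pSHF (adjusted p = 0.0182), where it rests on 21, 5, 32 and 58 UMIs (cHet Rep1, cKO Rep1, cHet Rep2, cKO Rep2). Without cHet Rep2 that difference was -0.025, and the call was lost there and without cKO Rep2. Gata4 differed by -1.45 in pSHF (adjusted p = 0.0318), with 38, 74, 44 and 85 UMIs in aSHF and 25, 16, 74 and 41 in pSHF, and leaving out 1 library gave -1.65 to -1.09, with the call lost in each case (adjusted p = 0.0516 to 0.957). Mef2c differed by 0.32 in pSHF (adjusted p = 0.0443), where its replicates had opposite signs, and it was -0.078 without cHet Rep2. With 1 library left out the call held only without cHet Rep1 (0.53). It was also lost with all genes of at least 1 count (adjusted p = 0.107) and in aSHF cluster 4 alone (adjusted p = 0.0721).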

How the results depend on the processing

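In aSHF 1 member was called, and 0 were without the replicate block, with DESeq2, after thinning to 5000 UMIs or in cluster 4 alone (chosen after seeing the data), while 2 (Myocd and Gata4) were called with all genes of at least 1 count (92 of 21762 genes), with barcodes of at least 1000 genes (28 of 13358), or with the members kept for clustering (13 of 13425). In MLPs 1 was called, and 0 were without the replicate block, with DESeq2, with its size factors, after thinning, with doublets kept, with at least 1000 genes, with the members kept for clustering or at a resolution of 1.2. With all genes of at least 1 count, 1 was called in BrM (Nkx2-6, otherwise 0, with opposite signs in the replicates and 386 of 22593 genes called), and DESeq2 called 1 in all cells (Myocd, otherwise 0, with 62 of 20126 genes). Leaving out each library in turn gave 0 to 0 in aSHF and MLPs. These fits have no block, since with it no degree of freedom is left, so the kits enter the genotype difference. Of the tests of differences between types 4 were called, and 0 were without the replicate block and 1 to 2 with a library left out, all chosen after seeing the data. Those left included Nkx2-6 in pSHF against aSHF without cHet Rep2 and Nkx2-5 in cardiac muscle against pSHF without cKO Rep2, neither among the 4, so that 0 of the 4 were called without cHet Rep2. Mef2c in pSHF against aSHF was also lost with all genes of at least 1 count (adjusted p = 0.107) and in cluster 4 alone (adjusted p = 0.0721). The blocked and unblocked fits differed in no other count of members called. Beyond the causes that lie in the construction of a fit, the cause was not tested.

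Over the 10 other settings that kept all libraries, Myocd in aSHF lay between -0.83 and -0.66 (log2 fold change) and was called in 6, and Gata4 in aSHF lay between 0.99 and 1.70 and was called in 3. With a library left out Myocd in aSHF lay between -1.70 and -0.14. Signs turned without 1 library as follows. Isl1 in aSHF was 0.18 without cHet Rep2 and 0.15 without cKO Rep1 (-0.60 to 0.18 over the 4 fits), and Hand2 in aSHF was 0.10 without cHet Rep1 and 0.041 without cKO Rep2 (-0.34 to 0.10). In pSHF, Nkx2-5 was 0.026 without cKO Rep1 (-1.50 to 0.026), and Mef2c was -0.0062 without cHet Rep2 and -0.15 without cKO Rep2 (up to 0.35). Isl1 in BrM was -0.21 without cHet Rep1 and -0.16 without cKO Rep2 (up to 0.72). In all cells without cKO Rep1, Nkx2-5 was 0.12 (from -1.58) and Gata5 0.10 (from -0.997). Without cHet Rep2, the difference of pSHF from aSHF was -0.025 for Myocd (up to 1.62) and -0.078 for Mef2c (up to 0.53).

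The number of all genes called moved most. In aSHF it was 6, and 0 to 92 in other settings, in pSHF 40 and 0 to 39, in cardiac muscle 6 and 0 to 28, in MLPs 58 and 0 to 99, in BrM 75 and 0 to 386, in endothelium 5 and 0 to 92, in endoderm 11 and 0 to 57, and in all cells 0 and 0 to 91. The count of 7 members highest in cardiac muscle among named types and of 7 highest in the top score bin stayed within 1.5 times in every setting run. Types rebuilt with other settings shared 70.8% to 75.9% of the aSHF cells. Counting error limits members with few UMIs, such as Nkx2-6 in the cardiac muscle of cKO Rep1 (7 UMIs).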
